A study of Mus musculus with 12 samples.

Results

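The gene mt-Ts1 encodes the mitochondrial tRNA that carries the anticodon TGA and reads the serine codons of the UCN family. Fragments of this tRNA were described across 12 small-RNA libraries of mouse embryonic gonads. The members were selected on their sequence: every unique sequence of the deposited lists that matched the reverse strand of the mouse mtDNA with up to 1 mismatch and had most of its match inside mt-Ts1. These were 10 of the 204 unique sequences listed, with 30435 of 403352 reads (7.55%). The counts had a part in the choice, because a sequence was listed for a library only where it passed the authors' minimum of 10 CPM, the counts per 1000000 reads. All 10 members lay wholly inside the gene, and no other listed sequence touched it on either strand.

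The libraries came from gonads of CD1 mouse embryos of 3 embryonic ages, E11.5, E12.5 or E13.5, where the number is days post coitum, sexed by PCR at the earlier ages. Primordial germ cells (PGC) were held back on a magnetic column by beads that bind CD15, an antigen on their surface, and the cells that passed through were the somatic cells (SC). Gonads of several litters were pooled, and each combination of cell type, sex and day gave 1 library, named PGC11F for female PGC at E11.5, SC13M for male SC at E13.5, and so on. No combination has a replicate library, no treatment or mutant was used, and the lists hold mitochondrial sequences only, so no marker gene of either cell type could be checked. Of the 12 libraries, PGC12F held the fewest mt-Ts1 reads and PGC13F had other 3′ ends than the rest, and the main group means and differences are also given without them.

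Mitochondrial tRNAs are cut out of long transcripts that span many genes, RNase P making the 5′ end and ELAC2 the 3′ end. Fragments of tRNAs, many of them from the 5′ part, are common in small-RNA libraries. piRNAs are small RNAs that PIWI proteins bind in germ cells, where they are best known for silencing transposons. The fragments described here were called mito-piRNAs by the authors because they matched both the mtDNA and a database of mouse sequences recovered with PIWI proteins, and binding to PIWI was not measured in these cells.

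On GRCm39, mt-Ts1 (ENSMUSG00000064352.1) lies on the minus strand at chrM:6870-6938 and is 69 bases long. It overlaps the end of mt-Co1, on the other strand, by 3 bases and is separated by 3 bases from mt-Td. The whole gene is shown first so that each fragment can be placed on it, with the anticodon, bases 31 to 33, in capitals:
mt-Ts1: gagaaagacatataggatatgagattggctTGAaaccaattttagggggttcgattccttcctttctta
The acceptor stem takes up bases 1 to 7 and the anticodon stem bases 24 to 28 and 36 to 40, with the loop at bases 29 to 35. The 4 members that recur between libraries are named by their length, and their last base is in capitals because the 3′ end is where they differ:
SerTGA-16: gagaaagacatatagG
SerTGA-18: gagaaagacatataggaT
SerTGA-21: gagaaagacatataggatatG
SerTGA-26: gagaaagacatataggatatgagatT
The other 6 members were each listed in 1 library. Those that match exactly are shown with the last base in capitals, and those with a mismatch with the mismatched base in capitals:
SerTGA-17: gagaaagacatataggA
SerTGA-19: gagaaagacatataggatA
SerTGA-20: gagaaagacatataggataT
SerTGA-18mm: gagaaagacatataggaC
SerTGA-30mm: gagaaagacatataggatatgagattggTt
SerTGA-31mm: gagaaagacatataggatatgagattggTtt

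The 10 members shared their 5′ end. Each started at base 1 of the tRNA, position 6938 of the mtDNA, so that each shorter exact member is the start of every longer one. The 3′ ends lay between base 16 and base 31, the first base of the anticodon. No listed sequence held the 3′ end of the tRNA or an end beyond the anticodon. The reading of this gene was thus limited to 9 lengths from 1 start site, among sequences that matched the database of PIWI-bound sequences. A shared start was not a property of mt-Ts1 alone among tRNA genes: all 5 sequences of mt-Tl1, all 2 of mt-Tq, all 2 of mt-Te and 30 of 35 of mt-Ts2 also started at the first base of their gene. mt-Tl1, mt-Tq and mt-Te encode the mitochondrial tRNAs for leucine (UUR codons), glutamine and glutamate, and mt-Ts2 the other one for serine (AGY codons).

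Among the 22 mitochondrial tRNA genes, 10 gave sequences of their own strand and 12 gave none. mt-Ts1 supplied 16% and mt-Ts2 81.5% of the 190739 sense tRNA reads. Only these 2 serine tRNA genes were listed in all 12 libraries, whereas 5 of the 10 genes were listed in 1 library. Because all members begin with G, mt-Ts1 accounted for 49.6% of the reads in the lists that start with G, from 28.3% in SC12M to 78.3% in PGC13F.

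The sequence of the fragments does not assign them to the mtDNA alone. A search of the nuclear chromosomes of GRCm39 found the whole 69-base tRNA unchanged at 2 places, so that a fragment of any length from the mitochondrial gene has the same sequence there. SerTGA-26 matched exactly at chr1:24654721-24654746, in an intergenic region, and at chr2:22478049-22478074, in an intron of Myo3a on the strand of that gene, which encodes a class III myosin. Shorter members matched more places: SerTGA-16 had 6 exact nuclear matches and 135 with 1 mismatch, and SerTGA-18 had 2 and 9. For SerTGA-21 the numbers were 2 and 1. Reads from the mtDNA and from these nuclear places cannot be told apart in the counts.

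Total mt-Ts1 reads ranged over more than an order of magnitude between libraries. Levels are given as rpm, the reads per 1000000 small-RNA reads over 10 CPM in the library, and the intervals, 95% exact Poisson limits, cover counting error only. The lowest was PGC12F, with 239 reads and 40.3 rpm (35.4 to 45.8). SC12F, SC12M and SC11M followed with 203, 254 and 303 rpm, and then PGC13M with 375 rpm. The middle of the order was held by PGC12M with 465, PGC11F with 488, SC11F with 525, PGC13F with 545 and SC13M with 568 rpm. The highest were SC13F with 844 rpm (822 to 866) and PGC11M with 922 rpm (895 to 949). Neighbours in this order whose counting intervals overlapped were PGC12M and PGC11F, SC11F and PGC13F, and PGC13F and SC13M. A single library per condition leaves the spread between embryos or preparations unmeasured, so the other steps of the order are larger than counting error but not known to be larger than biological error. In pooled tissue a higher share of cells with the fragment and more fragment per cell cannot be told apart.

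**Figure D1:**
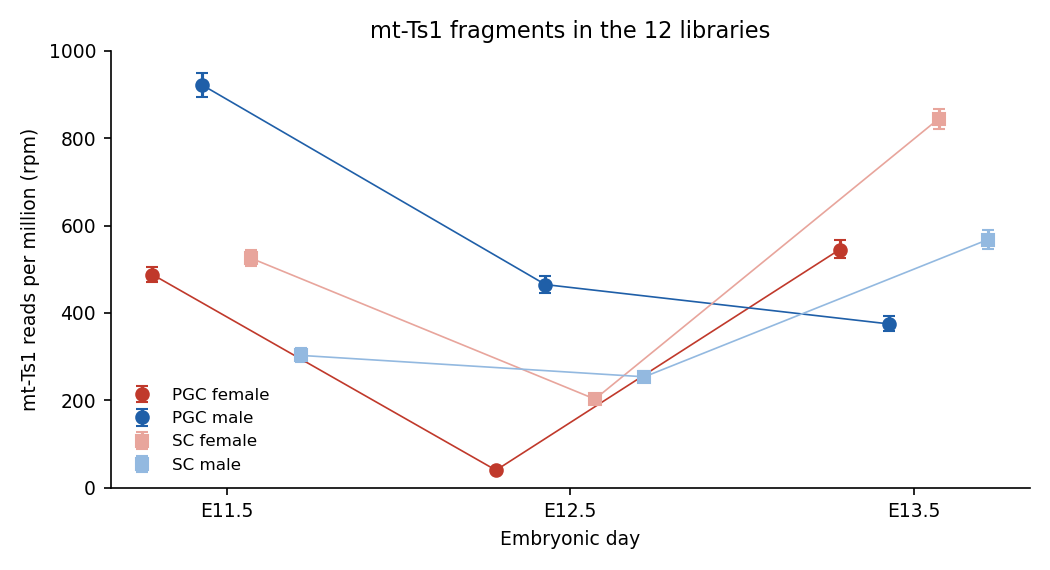
mt-Ts1 level in rpm (vertical axis) against embryonic age (horizontal axis, points of a day set side by side) in the 12 libraries, with PGC as circles and SC as squares. Bars are 95% exact Poisson intervals of the count and lines join the libraries of 1 cell type and sex: all 4 lines are lower at E12.5 than at E11.5, with PGC12F at 40.3 rpm, and 3 of 4 are higher at E13.5 than at E12.5.

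PGC and SC libraries were not shown to differ in the amount of mt-Ts1 fragments. The mean level was 472.6 ± 284 rpm (SD, n = 6) in PGC and 449.5 ± 243 rpm (SD, n = 6) in SC, and the ranges overlapped, with 40.3 to 922 rpm in PGC and 203 to 844 rpm in SC. With cell type, sex and day fitted together by edgeR's quasi-likelihood test, the log2 difference of SC against PGC was -0.003 (SE 0.582, Benjamini-Hochberg adjusted p = 0.996), and the median over the 11 features tested was -0.35. With sex and day matched, SC was higher in 4 of 6 comparisons, in all 3 female pairs and in 1 of 3 male pairs. None of the 11 gene-and-strand features listed in at least 3 libraries passed an adjusted p of 0.05 in this contrast (0%), with 1 at an unadjusted p under 0.05 and 1 called by DESeq2 (9.09%). Without PGC12F, the library with the fewest mt-Ts1 reads, the log2 difference was -0.33. Without PGC12F and PGC13F, an alternative chosen after seeing the data, the PGC mean was 562.5 ± 245 rpm (SD, n = 4). Counted against mt-Ts2 reads, the order of the pairs was another one: mt-Ts1 had 24.9 ± 13.4 reads per 100 mt-Ts2 reads in PGC and 17.9 ± 8.96 in SC (SD, n = 6 each), and SC was higher in 1 of 6 pairs and in none of the 3 male pairs. The PGC mean of this ratio was 29.9 ± 11.4 (SD, n = 4) without PGC12F and PGC13F. With mt-Ts2 reads as library size the log2 difference was -0.36 (SE 0.400, edgeR adjusted p = 0.627).

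Male and female libraries overlapped as well. The mean level was 481.2 ± 244 rpm (SD, n = 6) in male and 440.9 ± 283 rpm (SD, n = 6) in female libraries, and with cell type and day matched the male library was the higher in 3 of 6 comparisons. The log2 difference of male against female was 0.42 (SE 0.583, edgeR adjusted p = 0.652), and it was 0.00 without PGC12F and -0.11 without PGC12F and PGC13F. Without PGC12F and PGC13F the female mean was 515 ± 262 rpm (SD, n = 4). Per 100 mt-Ts2 reads there were 24.5 ± 14.1 mt-Ts1 reads in male and 18.3 ± 8.21 in female libraries (SD, n = 6 each), or 20.1 ± 5.84 (SD, n = 4) in female ones without these 2, and the male library was higher in 5 of 6 pairs. With mt-Ts2 reads as library size the log2 difference was 0.39 (SE 0.406, edgeR adjusted p = 0.596). In the edgeR fit with the study's library totals 1 of 11 features passed (9.09%) and the median log2 difference over the 11 features was 0.86, whereas DESeq2 called 2 (18.2%). Whether the sexes differed by another amount in SC than in PGC was tested with an interaction term, which was -1.49 (SE 1.12, edgeR adjusted p = 1.00). It was -0.91 without PGC12F and -0.89 without PGC12F and PGC13F. No feature passed that test (0%), 1 had an unadjusted p under 0.05, and DESeq2 called none.

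Of the 3 factors, day showed the widest difference between group means, with a minimum at E12.5 that did not pass the test. The mean was 559.5 ± 260 rpm (SD, n = 4) at E11.5, 240.6 ± 175 rpm (SD, n = 4) at E12.5 and 583 ± 194 rpm (SD, n = 4) at E13.5. In each of the 4 combinations of cell type and sex the library of E12.5 was below that of E11.5. The log2 difference of E12.5 against E11.5 was -1.31 (SE 0.690) (edgeR adjusted p = 0.228). The median over the 11 features, mt-Ts1 among them, was -0.69, so the difference of mt-Ts1 relative to it was -0.61. With each library left out, this relative value ran from -1.20 without PGC11F to -0.44 without PGC12F. The log2 difference itself was -0.82 without PGC12F and -2.0 without PGC12M, and its size depended on the scaling, with -0.73 when the sum of listed counts was the library size and -0.36 in DESeq2. Without PGC12F and PGC13F the means were 307.3 ± 139 rpm (SD, n = 3) at E12.5 and 595.7 ± 236 rpm (SD, n = 3) at E13.5. No feature passed in this contrast (0%), 1 had an unadjusted p under 0.05, and DESeq2 called 1 (9.09%).

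From E12.5 to E13.5 the level was higher in 3 of 4 combinations, the exception being male PGC with 465 and then 375 rpm. The log2 difference was 1.42 (SE 0.703), with an unadjusted p of 0.0463 in the edgeR fit, and did not pass after adjustment (edgeR adjusted p = 0.102). It was 0.26 with the sum of listed counts as library size and 0.13 in DESeq2. Here 5 of 11 features had an unadjusted p under 0.05, DESeq2 called 3 and 3 passed in edgeR (27.3%), among them mt-Rnr1 and mt-Rnr2, the genes of the mitochondrial rRNAs. The median over the 11 features was 1.43, so the difference of mt-Ts1 relative to it was -0.01. This median is a rough baseline, because mt-Ts1 is itself among the 11 and some of the others have large standard errors, such as 4.272 for mt-Nd3. Leaving out PGC13M brought mt-Ts1 under the threshold (log2 difference 1.74, edgeR adjusted p = 0.0446), which no other omission did. In that fit 7 of the 11 features passed (63.6%) and the median over all 11 was 1.80, so that mt-Ts1 was -0.06 relative to it. Without PGC12F the log2 difference was 0.96 and the median 1.69, so that mt-Ts1 was -0.73 relative to it. Without PGC12F and PGC13F mt-Ts1 was -0.96 relative to a median of 2.02. With both PGC12F and PGC13F left out the differences were 1.06 for E13.5 against E12.5 (edgeR adjusted p = 0.099), -0.78 for E12.5 against E11.5 (0.397) and -0.49 for SC against PGC (0.697).

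Relative to the other serine tRNA gene, mt-Ts1 had its lowest mean at E12.5 as well. There were 31.0 ± 11 mt-Ts1 reads per 100 mt-Ts2 reads at E11.5, 12.2 ± 6.39 at E12.5 and 21.1 ± 9.04 at E13.5 (SD, n = 4 each). The ratio does not depend on the library total. It was lower at E12.5 than at E11.5 in 4 of 4 combinations and higher at E13.5 than at E12.5 in 3 of 4, the exception being male SC with 31.6, 11.9 and 8.09 over the 3 days. Without PGC12F and PGC13F the means of the later days were 14.6 ± 5.12 and 19.8 ± 10.6 (SD, n = 3 each). The ratio ranged from 4.92 in PGC12F to 46.3 in PGC11M over the 12 libraries. Taking the mt-Ts2 reads as library size, the log2 difference of E12.5 against E11.5 was -1.34 (SE 0.484, edgeR unadjusted p = 0.0252, adjusted p = 0.277). That of E13.5 against E12.5 was 0.84 (SE 0.491, edgeR unadjusted p = 0.127, adjusted p = 0.390), against 1.42 with the study's totals. No feature passed in either fit. In every fit scaled to mt-Ts2, mt-Ts2 stayed among the 11 features tested, although its own difference is fixed by that scaling.

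The features whose level over the 12 libraries was most like that of mt-Ts1 were mt-Ts2 (Spearman 0.66, Pearson 0.64, on log2 rpm with a pseudocount of 1), mt-Rnr1 (0.48 and 0.38) and mt-Rnr2 (0.43 and 0.39). These are descriptions over points that share each library's RNA, preparation and denominator. Only 4 features other than mt-Ts1 had reads in all 12 libraries. The last of them, the antisense D-loop, had a Spearman correlation of 0.24 and a Pearson correlation of 0.38, the latter equal to that of mt-Rnr1.

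The 4 recurrent members carried 94.3% of the reads. SerTGA-18 was the most abundant, with 14849 reads (48.8%) in 12 of 12 libraries. Its level was lowest at 22.3 rpm in PGC12F, had a median of 171 rpm and was highest at 581 rpm in PGC11M and 540 rpm in SC13F. SerTGA-21 had 9270 reads (30.5%) in 12 of 12 libraries, from 18.1 rpm in PGC12F over a median of 134 rpm to 304 rpm in SC13M. The library with the most of the 21-nt fragment was thus not the library with the most of the 18-nt fragment.

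SerTGA-16 had 3463 reads (11.4%) in 11 libraries, from 22.3 rpm in PGC13F to 123 rpm in PGC11M. With the 3′ ends of PGC13F that resemble the adapter removed, as described below, its value there was 90.5 rpm and the lowest was 26.7 rpm in SC12F. SerTGA-16 was not listed in PGC12F, where its pooled share elsewhere of the mt-Ts1 reads would have come to 27.4 reads, under the lowest count listed there of 100. SerTGA-26, which reaches into the anticodon stem, had 1110 reads (3.65%) in 7 libraries, from 15.2 rpm in SC12F to 48.4 rpm in SC11F. At its pooled share in those 7 libraries it would have been above the lowest listed count in 2 of the 5 libraries that do not list it, so in the other 3 its absence was not detectable as a difference at this depth. The lowest listed count was between 66 and 109 reads, or 14.6 to 17.8 rpm, in the 12 libraries.

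Single sequences were tested in the same edgeR model over the 97 sequences listed in at least 3 libraries, which include 4 of the 10 members. None of the 4 passed in any of the 4 contrasts, none had an unadjusted p under 0.05 in edgeR, and DESeq2 called none of them. Over all 97 sequences, 2 passed for SC against PGC (2.06%) and none for male against female (0%), for E12.5 against E11.5 (0%) or for E13.5 against E12.5 (0%), with 9, 4, 2 and 11 at an unadjusted p under 0.05. DESeq2 called 14 (14.4%), 5 (5.15%), 20 (20.6%) and 19 (19.6%) of the 97 in the same order. With 4 members, counts of 0 beside these shares say little about the members. The smallest unadjusted p of a member, 0.0793, was that of SerTGA-21 for E12.5 against E11.5 in the edgeR fit (log2 difference -1.50, SE 0.809, adjusted p = 0.627). SerTGA-18 had a log2 difference of -1.16 (SE 0.872) in that contrast and of 1.24 (SE 0.941) for E13.5 against E12.5. For SC against PGC its difference was -0.08 (SE 0.765) and that of SerTGA-21 was 0.28 (SE 0.645). The standard errors allow differences of more than 1 log2 unit in either direction between the cell types.

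The make-up of the reads differed between libraries. SerTGA-18 was the leading member in 10 libraries and SerTGA-21 in PGC11F and SC13M. In PGC11F the 21-nt fragment made up 49.4% of the mt-Ts1 reads (95% Wilson interval 47.7 to 51.1, counting error only) and the 18-nt fragment 34.7% (33.1 to 36.3). In SC13M the shares were 53.5% (51.6 to 55.4) and 19.2% (17.8 to 20.8). In SC13F, its female counterpart, they were 16.4% (15.5 to 17.4) and 64.1% (62.8 to 65.3).

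The ratio of the 21-nt to the 18-nt fragment is taken within a library and needs no total. In female libraries it was 1.42 in PGC and 0.819 in SC at E11.5, 0.811 and 0.791 at E12.5, and 0.334 and 0.256 at E13.5. In male libraries it was 0.337 in PGC and 0.759 in SC at E11.5, 0.465 and 0.659 at E12.5, and 0.846 and 2.78 at E13.5. SC was thus lower in 3 of 3 female pairs and higher in 3 of 3 male pairs. At E12.5 the female pair differed by little, and this contrast between the sexes was not tested. Over all libraries of a cell type the ratio was 0.7022 ± 0.418 (SD, n = 6) in PGC and 1.011 ± 0.891 (SD, n = 6) in SC. The higher mean of SC rested on SC13M, without which it was 0.657 ± 0.232 (SD, n = 5). Without PGC12F and PGC13F the PGC mean was 0.767 ± 0.486 (SD, n = 4).

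**Figure D2:**
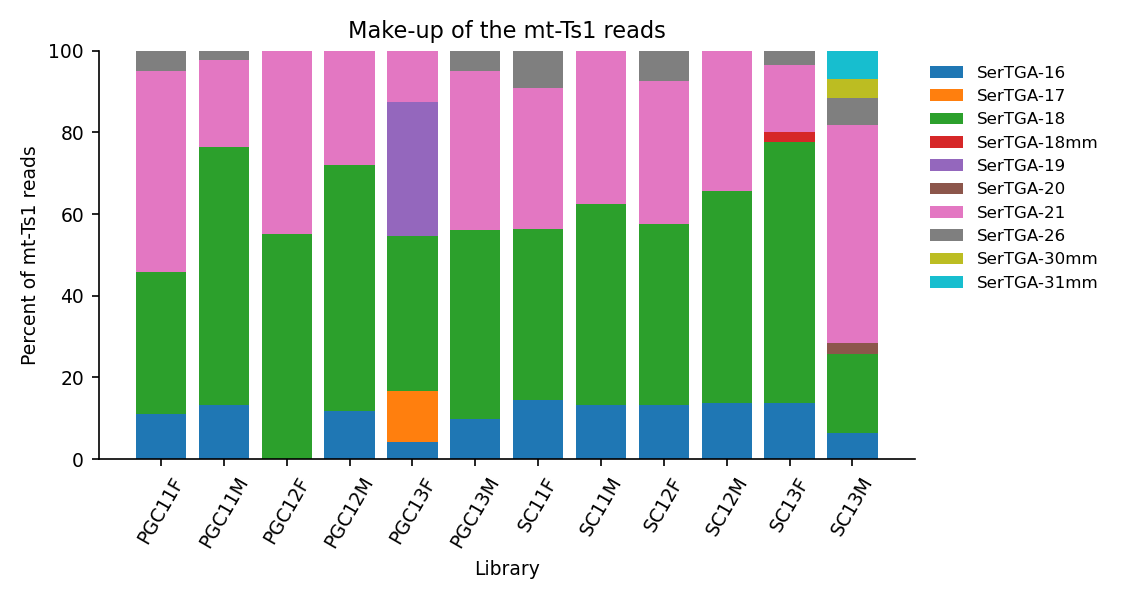
Share of each member in the mt-Ts1 reads of a library (stacked bars, percent, each adding to 100) in the 12 libraries. SerTGA-18 and SerTGA-21 take most of each bar, and SerTGA-17 and SerTGA-19 appear in PGC13F alone. SC13M has the highest share of 21-nt reads (53.5%) and holds the members of 30 and 31 nt.

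PGC13F stood apart in its 3′ ends. It alone listed SerTGA-17 (345 reads, 68.2 rpm) and SerTGA-19 (904 reads, 179 rpm), both of which end in A, and these made up 45.3% of its mt-Ts1 reads against 0% in the other 11 libraries. At the same share, SerTGA-19 would have been above the lowest listed count in 10 of those 11 libraries. In all mito-piRNA reads of PGC13F, 38.1% ended in A, against 2.66 to 7.91% in the other libraries, so the difference was not limited to mt-Ts1. The stated trimming used an adapter that begins with AGAT and a minimum overlap of 1 base. A read whose adapter had already been removed would lose a last A under this setting, while a read that still carried the whole adapter would not. Which of these held for each library is not given in the sources used here, and whether trimming had a part in the difference was not tested.

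If such ends are removed, a fragment of 17 nt from base 1 becomes 16 nt, 19 nt becomes 18 nt, and 22 to 25 nt become 21 nt. Lengths within each of these sets could then not be told apart in the counts. With this rule applied to PGC13F, an alternative chosen after seeing the data, it held 458 reads of 16 nt, 1949 of 18 nt and 349 of 21 nt, and its ratio of 21 to 18 nt was 0.179 in place of 0.334. The ratio of SC13F, 0.256, was then above that of PGC13F, so that SC was lower in the female pairs of E11.5 and E12.5 and higher in that of E13.5.

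SC13M stood apart in its longer mt-Ts1 fragments. It listed 7 members, more than any other library, and also the most mito-piRNA sequences, 103 against 41 to 102. Among its members were SerTGA-20 (67 reads, against a lowest listed count of 66), SerTGA-30mm (118 reads, 26 rpm) and SerTGA-31mm (178 reads, 39.2 rpm). Reads of 24 nt or longer were 18.2% of its mt-Ts1 reads. In the 6 other libraries that listed any such read the share was between 2.39% in PGC11M and 9.22% in SC11F, and 5 libraries listed none. Among mt-Ts2 reads the share of 24 nt or longer was lowest in SC13M, 28.5%, against 35.2% in PGC13M to 56% in SC12F. At the share they had in SC13M, SerTGA-30mm would have been above the lowest listed count in 7 of the other 11 libraries and SerTGA-31mm in 9.

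Base 29, the first base of the anticodon loop, is covered by SerTGA-30mm and SerTGA-31mm alone, and both differ from the mtDNA there by the substitution C29T, counted from the 5′ end of the tRNA. All 296 listed reads that crossed this base, from 1 library, thus carried T. As background, this cytidine is a known site of 3-methylcytidine in this tRNA. The cause of the substitution was not tested. Whether the mtDNA of these CD1 embryos has C at this base, as that of GRCm39 does, cannot be seen in the lists. The 2 full nuclear copies of the tRNA also have C at this base, and neither member had an exact nuclear match, each matching those 2 places with 1 mismatch. The third member with a mismatch, SerTGA-18mm (T18C, at its last base), had 131 reads, 19.5 rpm, in SC13F alone and no exact nuclear match either. At its share there it would have been above the lowest listed count in 1 of the other 11 libraries. The 3 members with a mismatch held 427 reads, 1.40% of the total.

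Listed mt-Ts1 fragments were shorter on average than those of the other serine tRNA gene in every library. Only sequences that matched the database of PIWI-bound sequences are listed. The authors classed longer reads with the same 5′ end that the database lacks as precursors. The database was the same for all 12 libraries, so agreement between libraries does not bear on this limit. Its part in the difference was not tested. The read-weighted mean length of mt-Ts1 reads was 19.2 ± 0.839 nt (SD, n = 12) and that of mt-Ts2 reads 23.0 ± 0.655 nt (SD, n = 12). The difference of mt-Ts1 minus mt-Ts2 was negative in 12 of 12 libraries, from -4.71 nt in SC12F to -0.81 nt in SC13M, with a mean of -3.82 nt (SD 1.08). A two-sided exact sign-flip permutation test over the 12 libraries gave p = 0.000488, the smallest it can give. Without SC13M the differences ran from -4.71 to -2.88 nt. With mt-Ts2 limited to sequences that start at its first base, the mean difference was -3.90 nt.

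**Figure D3:**
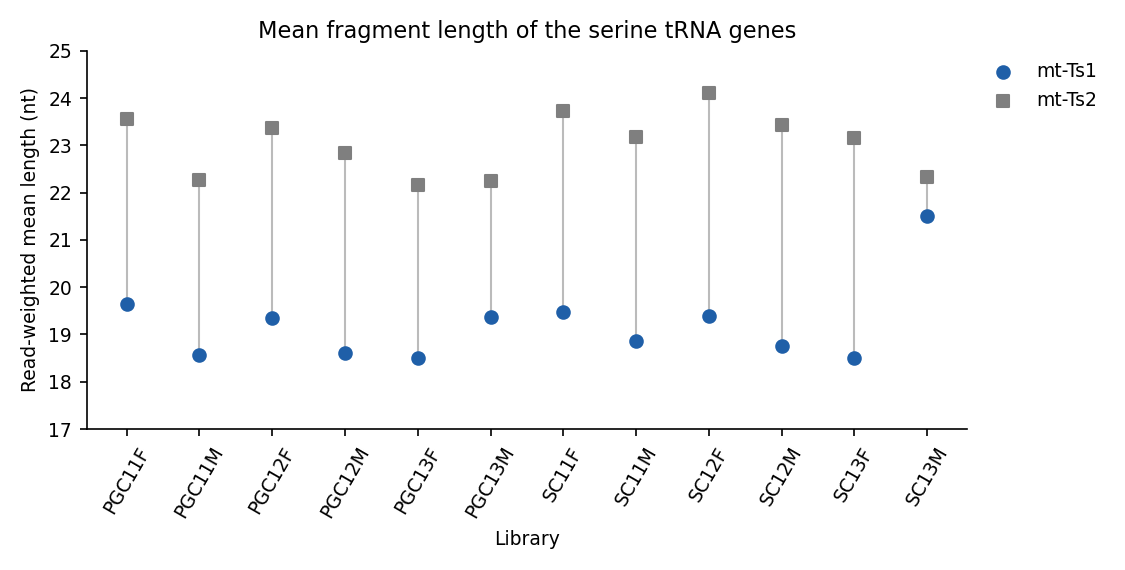
Read-weighted mean length in nt (vertical axis, from 17 to 25 nt) of mt-Ts1 reads (circles) and mt-Ts2 reads (squares) in the 12 libraries, a grey line joining the values of a library. Every circle is below its square, and the gap is smallest in SC13M, at -0.81 nt.

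The lengths of the 2 genes were also spread in different ways. mt-Ts2 was listed at 18 lengths between 16 and 33 nt and mt-Ts1 at 9. Summed over libraries, 49.2% of mt-Ts1 reads had 18 nt and 30.5% had 21 nt. The leading length of mt-Ts2 was 22 nt with 24% of its reads, a length at which mt-Ts1 had none. As given above, removal of ends that resemble the adapter would bring mt-Ts1 fragments of 22 to 25 nt to 21 nt, and its part in this absence and in the difference of the mean lengths was not tested. PGC13F listed no mt-Ts1 sequence of these lengths either. Reads under 20 nt were 64.7% of mt-Ts1 and 23.0% of mt-Ts2 reads, and reads of 24 nt or longer were 4.62% and 40.4%.

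**Figure D4:**
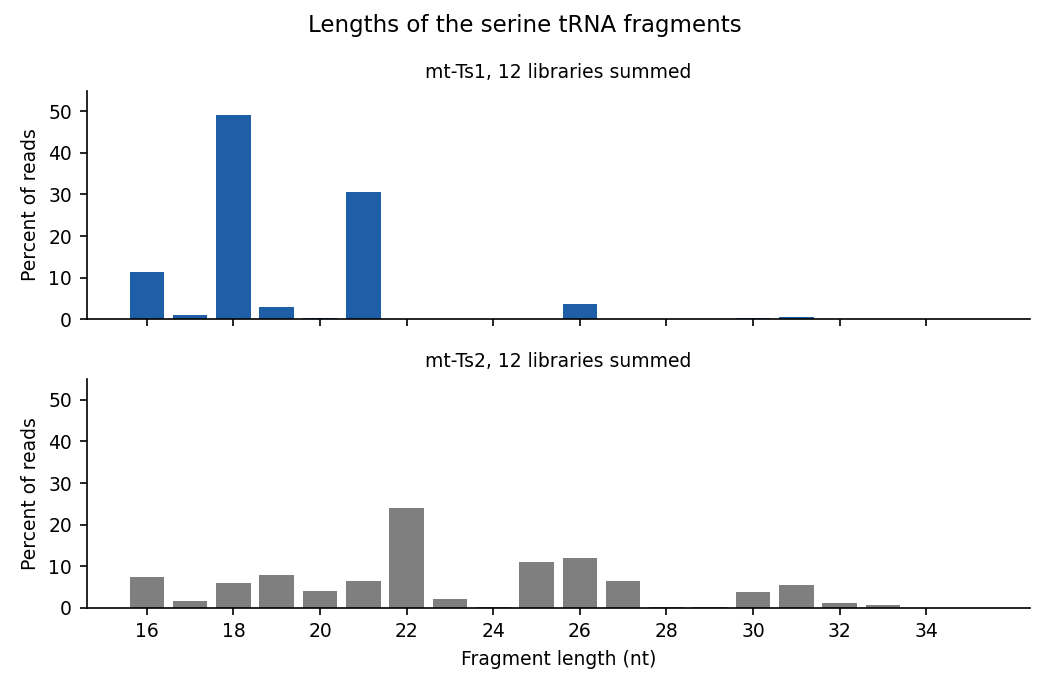
Share of reads (vertical axis, percent) at each fragment length in nt (horizontal axis) for mt-Ts1 (upper panel) and mt-Ts2 (lower panel), the 12 libraries summed. mt-Ts1 reads are gathered at 16, 18 and 21 nt, and mt-Ts2 reads are spread out with their highest share, 24%, at 22 nt.

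The mean length of mt-Ts1 reads was not shown to differ between the study's groups. It was 19.0 ± 0.505 nt in PGC and 19.4 ± 1.09 nt in SC (SD, n = 6 each; two-sided exact permutation test over 924 splits, p = 0.472, adjusted p = 0.801). The test did not match libraries by sex and day. With these matched, SC had the longer mean in 5 of 6 pairs, in 3 of 3 male and 2 of 3 female pairs. The female pairs of E12.5 and E13.5 differed by little, with 19.39 nt in SC and 19.34 nt in PGC and with 18.51 and 18.5 nt. The male mean was 19.3 ± 1.13 nt and the female mean 19.2 ± 0.508 nt (n = 6 each; exact permutation p = 0.870, adjusted p = 0.952). By day it was 19.1 ± 0.513, 19.0 ± 0.402 and 19.5 ± 1.42 nt (n = 4 each; exact permutation over 70 splits, p = 0.629 for E12.5 against E11.5 and p = 0.857 for E13.5 against E12.5, adjusted p = 0.786 and 0.857). The adjustment was over the 5 features with reads in all 12 libraries, none of which passed in any of the 4 contrasts (0%) or had an unadjusted p under 0.05. The mean of SC13M, 21.5 nt, was above the 18.5 to 19.65 nt of the other 11 libraries. Without SC13M the difference of SC minus PGC was -0.01 nt, that of male minus female -0.32 nt and that of E13.5 minus E12.5 -0.23 nt. Without PGC12F and PGC13F the differences were 0.37 nt for SC minus PGC, 0.02 nt for male minus female, -0.22 nt for E12.5 minus E11.5 and 0.88 nt for E13.5 minus E12.5, and that of mt-Ts1 minus mt-Ts2 was -3.81 nt.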

How the data were processed

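Small-RNA sequencing of 12 pooled samples was reanalysed from the raw read counts that the authors deposited, 1 count per unique mito-piRNA sequence. Per the methods and labels, the authors trimmed reads with Trim Galore, inspected them with FastQC, collapsed identical reads, discarded sequences under 10 CPM and mapped what remained by Bowtie, allowing 1 mismatch, to mm39 nuclear DNA, to the mtDNA and to a database of PIWI-bound sequences.

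The 204 sequences were placed on the mtDNA of GRCm39 (at most 1 mismatch), each in the GENCODE gene that covers most of it. A sequence missing from a library was taken as 0. Library sizes were the study's totals of reads over 10 CPM, and mito-piRNA reads per library ranged from 16061 to 59545. Samples were grouped by the labels into 6 against 6 (cell type, sex) and 4 each (day). No condition has a replicate library, so p-values measure the spread between libraries of other conditions.

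Counts per gene and strand, and per sequence, were tested with edgeR 4.0.16 (quasi-likelihood, cell type, sex and day additive, Benjamini-Hochberg over features or sequences in at least 3 libraries, threshold 0.05), and DESeq2 1.42.0 was an alternative. The spread was shared over only 11 features. Mean lengths were compared with exact permutation tests, which in the contrasts between groups did not account for the other factors. The steps were tested on simulated data without a listing minimum, which does not show how the tests perform on lists cut at such a minimum. Other library sizes, filters, cut-offs, pseudocounts, blocks and omitted libraries were tried. Named genes are all members, mt-Ts2, the 3 features most alike, the 22 tRNA genes as counts, and nuclear places of the longest member with an exact match. mt-Tl1, mt-Tq, mt-Te and the antisense D-loop were named after their values were seen. The members, lists and tests were chosen with earlier results of these data known. R 4.3.3 and Python 3.11.15 (pandas 2.3.3, SciPy 1.17.1, NumPy 2.4.6, matplotlib 3.10.9) were used.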

Additional observations from a re-analysis of the deposited data

Results flagged for a closer look

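SC13M lay far from the other libraries of its groups in the mean length of mt-Ts1 reads. Its value of 21.5 nt compares with 19.5 nt for the nearest SC library and 19.4 nt for the nearest male library (6 libraries in each group). Its ratio of the 21-nt to the 18-nt fragment, 2.78, compares with 0.819 and 0.846 for the nearest SC and male libraries. By Dixon's 95% criterion 4 values were flagged in 28 groups tested, all from this library. The flags were in the SC and the male group and not among the libraries of E13.5. Chance flags about 1 group in 20 where groups are independent. These were 4 quantities over 7 overlapping groups of the same libraries, each of mixed conditions, so that rate cannot be set against the flags. The length and the ratio share the same reads. No cause was tested.

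The ratio of the 21-nt to the 18-nt fragment was lower in SC than in PGC in 3 of 3 female pairs and higher in 3 of 3 male pairs. This difference between the sexes was not tested. It no longer held in every female pair once the ends of PGC13F that resemble the adapter were removed (0.179 against 0.256 in SC13F).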

How the results depend on the processing

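Of 212 alternative values over 10 differences, 187 kept direction and side of the threshold, 24 changed direction and 1 passed the threshold. None of the 24 values that changed direction passed a test. The log2 difference of SC against PGC, -0.003, became 0.17 with library sizes from the lowest listed count, 0.10 with a common cut-off of 25 rpm, 0.18 with matched libraries as blocks, and 0.19 and 0.16 in permutation tests with pseudocounts of 1 and 10. It ran from -0.33 to 0.45 with each library left out. That of male against female became -0.15 with the sum of listed counts as library size, -0.05 with TMM and, chosen after seeing the data, -0.11 without PGC12F and PGC13F, and ran from 0.00 to 0.70 with each library left out. The ranges were -2.0 to -0.82 for E12.5 against E11.5, 0.96 to 1.99 for E13.5 against E12.5 (adjusted p from 0.0446, without PGC13M, to 0.343 in edgeR) and -2.02 to -0.91 for the interaction. With matched libraries as blocks the other values were 0.35, -1.37 and 1.57, and the block changed no call of mt-Ts1 or its sequences. The 1 feature called for male against female and the 2 sequences called for SC against PGC were no longer called, with 0 calls in both.

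For E13.5 against E12.5, the sum of listed counts as library size gave 0.26, TMM 0.60 and DESeq2 0.13, where the median over features moved from 1.43 to 0.37, 0.66 and 0.13. For E12.5 against E11.5 these gave -0.73, -0.98 and -0.36. Relative to the median, which includes mt-Ts1, it was between -0.76 and -0.61 in this contrast and between -0.10 and 0.00 in the former under these scalings. With each library left out the relative value moved more. It ran from -1.20 (without PGC11F) to -0.44 (without PGC12F) for E12.5 against E11.5, and from -0.73 (without PGC12F) to 0.00 for E13.5 against E12.5. The number of single mt-Ts1 sequences called stayed at 0 under every alternative run, where edgeR called 0 to 6 of all sequences tested, with no call in 76 of 88 fits, and DESeq2 5 to 20 of 97.

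Mean lengths ran from -0.01 to 0.59 nt for SC against PGC, -0.32 to 0.27 nt for male against female, -0.31 to 0.06 nt for E12.5 against E11.5, -0.23 to 0.77 nt for E13.5 against E12.5 and -4.09 to -3.74 nt for mt-Ts1 against mt-Ts2 with each library left out. With the lowest listed count in place of each missing sequence, male against female was -0.08 nt, E12.5 against E11.5 0.60 nt and E13.5 against E12.5 -0.43 nt, mt-Ts1 against mt-Ts2 was -2.98 nt, and with exact matches male against female was -0.07 nt. Under the cut-off of 25 rpm PGC12F kept no mt-Ts1 read, so lengths were not run. The causes of these changes were not tested. PGC12F, with 239 mt-Ts1 reads, and the listing minimum limit what absent members show.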
